A study of Saccharomyces cerevisiae with 8 samples.

Results

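Small nuclear RNAs (snRNAs) and small nucleolar RNAs (snoRNAs) were examined through the start sites of their genes in the yeast Saccharomyces cerevisiae. The set comprised every nuclear gene annotated as snoRNA or snRNA in the R64 assembly, which gave 82 genes among 6431 nuclear genes. There were 76 snoRNA genes and 6 snRNA genes. By their place in the annotation, 51 snoRNA genes were monocistronic, 17 lay in 5 clusters and 8 lay inside an intron of another gene. A gene counted as clustered when it was under 500 bp from another snoRNA gene on its strand.

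Start sites were mapped in 8 libraries by CAGE-seq, a method that selects RNA by its 5′ cap and reads the sequence at that end. The strains derived from BY4741, a laboratory strain, and carried a synthetic HPRT1 locus (human sequence) or HPRT1R locus (the same sequence reversed), either as an episome or integrated into chromosome XI. Episome strains were grown in SC-Leu, a defined medium without leucine, and integrated strains in YPD, a rich medium, to mid-log phase at 30 °C in both cases. Each of the 4 combinations was represented by 2 replicate colonies. The 2 media are therefore the same split as episome against integrated, and the effects of these cannot be told apart.

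The spliceosomal snRNAs U1, U2, U4, U5 and U6 are parts of the machinery that recognises introns and removes them by splicing. Box C/D snoRNAs guide 2′-O-methylation of ribosomal RNA, box H/ACA snoRNAs guide pseudouridylation, and a few, among them U3 and snR30, are needed for cleavage of the ribosomal RNA precursor. Monocistronic genes have promoters of their own, whereas clustered and intron-hosted snoRNAs are cut out of longer transcripts and carry no cap of their own. Many monocistronic box C/D RNAs also lose their original 5′ end, since their precursors are cleaved by the nuclease Rnt1 and trimmed by exonucleases. Capped snRNAs and snoRNAs carry a trimethylated guanosine. U6 and snR52 are made by RNA polymerase III.

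A start peak was defined as a peak on the gene's strand whose 5′ end lay from 300 bp upstream to 50 bp downstream of the annotated 5′ end. That end is the end of the mature RNA. Peak height is given in RPM, the number of reads stacked at the summit per 1000000 aligned reads of the library. Reads per library, recovered from the peak statistics, ran from 6.48 to 8.85 times 1000000. The lowest heights called lay between 8.48 and 14.6 RPM and were higher on the reverse strand, which had more reads, in every library. A gene without a peak may therefore have had a start site below the height that was called. Reads carried no molecular identifiers, so heights count amplified reads and not molecules.

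Of the 82 genes, 20 had a start peak in at least 1 library, which is 24.4%. The same was true of 60.5% of all nuclear genes and 64% of protein-coding genes. In single libraries, 8 to 11 of the 82 genes had a peak, with 8 to 10 in SC-Leu and 8 to 11 in YPD. A peak in all 8 libraries was found for 6 genes, against 18.7% of all nuclear genes. These were LSR1 and SNR19, which encode U2 and U1, and the box H/ACA genes SNR30, SNR86, SNR37 and SNR10. SNR8 had a peak in 7 libraries, SNR82 in 4 and SNR42 in 2, and all 3 are box H/ACA genes. The remaining 11 genes were detected in 1 library each. Requiring a fold enrichment of at least 4 reduced the 20 genes to 8, and a −log10 q of at least 20 reduced them to 13.

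Detection in at least 1 library was concentrated in monocistronic box H/ACA genes. Start peaks were found at 17 of 51 monocistronic genes (33.3%), at 1 of 17 clustered genes (5.88%), at 0 of 8 intron-hosted genes and at 2 of 6 snRNA genes. Of the monocistronic genes, 15 of 27 box H/ACA genes (55.6%) and 1 of 22 box C/D genes (4.55%) had a peak. The box H/ACA share was below the 60.5% of all nuclear genes. That box C/D gene was SNR13, with 17.2 RPM in 1 library in SC-Leu. Most of the 15 box H/ACA genes with a peak were likewise detected in 1 library only, from SNR49 at 9.88 RPM to SNR31 at 29.5 RPM. A peak in 4 or more libraries was found at 6 of the 27 box H/ACA genes, 0 of the 22 box C/D genes and 2 of the 6 snRNA genes. The 2 U3 genes belong to neither box type in these counts. Since the classes were read from the annotation and genes of a class are not replicates, the counts are given without a test.

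RNA length moved with class and, over the whole set, with detection. The monocistronic box C/D RNAs had a median length of 100 nt, the monocistronic box H/ACA RNAs 203 nt, the clustered RNAs 95 nt and the intron-hosted RNAs 92 nt. Genes with a peak in all 8 libraries encoded RNAs of 245 to 1175 nt, with a median of 587 nt. Genes without any peak had a median of 105 nt. By length, a peak was found at 1 of 26 genes under 100 nt, 8 of 33 from 100 to under 200 nt, 4 of 13 from 200 to under 300 nt and 7 of 10 of 300 nt and over. Within the monocistronic box H/ACA genes, detection in any library showed no steady rise with length. It was 7 of 12, 4 of 9 and 4 of 6 genes in the last 3 of these ranges. Detection in 4 or more libraries did rise, with 1 of 12, 2 of 9 and 3 of 6 genes. In all 8 libraries it was 0, 1 and 3 genes. Of the monocistronic box C/D genes from 100 to under 200 nt, 1 of 11 had a peak, and these RNAs had a median of 109 nt against 185 nt for box H/ACA. In a range of overlapping lengths, 0 of 3 box C/D genes (172 to 255 nt) and 11 of 21 box H/ACA genes (161 to 268 nt) had a peak. RNA was purified on RNeasy columns, which are designed to retain longer RNA, and the part of length in these counts was not tested.

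**Figure D1:**
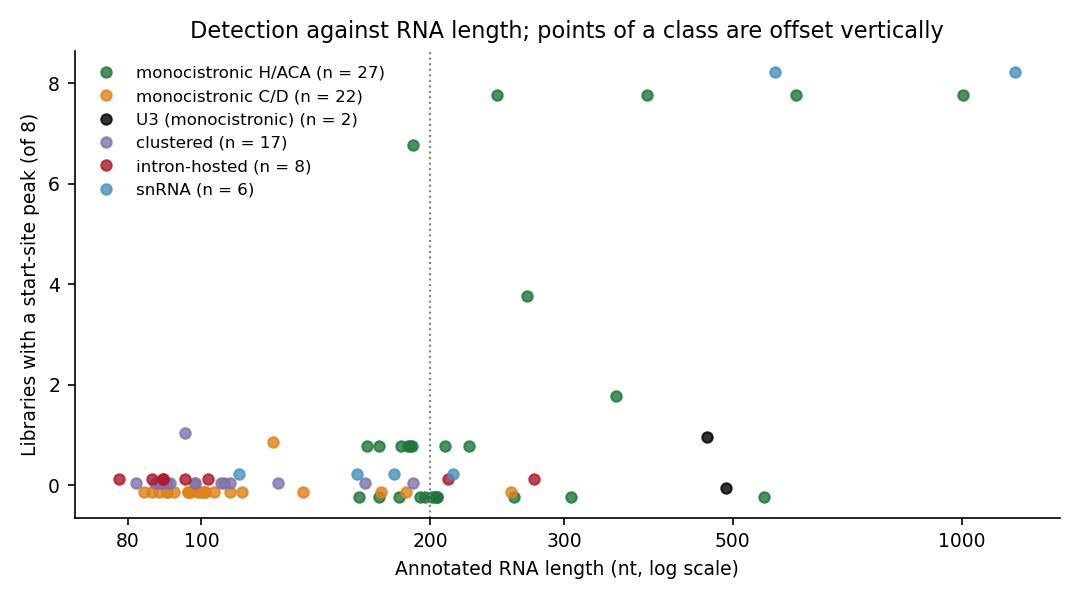
Number of libraries with a start peak (y axis, of 8) against the annotated RNA length (x axis, nt, log scale) for each of the 82 genes, coloured by class, with points of a class shifted vertically for legibility. The dotted line marks 200 nt. The 6 genes at 8 libraries are 245 nt or longer, whereas clustered, intron-hosted and box C/D genes lie at 0 or 1 library.

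Some genes departed from the order of length. SNR8, of 190 nt, was detected in 7 libraries. SNR84 and SNR83, box H/ACA genes of 550 and 306 nt, had no start peak, nor did SNR11 (258 nt) and SNR63 (255 nt), a box C/D gene. These were named after their values had been seen. In all, 12 of the 23 genes of 200 nt or more were without a start peak. Among these was SNR17A (490 nt), which had a peak beginning 155 or 156 bp inside the gene in all 8 libraries, outside the window for start peaks.

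SNR30 had the highest median start peak height of the set, although LSR1 was taller in 2 libraries. It encodes an essential snoRNA required to release the precursor of 18S ribosomal RNA (chrXII:198784-199389, forward strand). In SC-Leu its height was 1687 and 1444 RPM in the HPRT1 libraries and 1398 and 1658 RPM in the HPRT1R libraries. In YPD it was 1670 and 1873 RPM in the HPRT1 libraries and 1766 and 1338 RPM in the HPRT1R libraries. The media overlapped, and YPD held both the highest and the lowest library. Its median of 1664 RPM ranked 77 of the 1201 nuclear genes with a peak in all libraries.

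LSR1 encodes U2, which pairs with the branch point of introns (chrII:680688-681862, reverse strand). Its heights in SC-Leu were 1459, 1405, 463 and 1858 RPM, in the order HPRT1 replicates 1 and 2, then HPRT1R replicates 1 and 2, which is kept below. In YPD they were 518, 329, 2273 and 329 RPM. The values fell into tall and low libraries in both media. In the 4 tall libraries the peak was 918 or 919 bp wide with a summit 608 to 741 bp inside the gene, so its height was not that of the 5′ end. In the other 4 libraries the 5′ peak stood alone with its summit 120 to 191 bp inside, at 329 to 518 RPM. A separate peak then began 289 to 414 bp inside, at 1760 to 2061 RPM.

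Taking the tallest peak over the whole of LSR1, heights were 1459, 1405, 1796 and 1858 RPM in SC-Leu and 1760, 1769, 2273 and 2061 RPM in YPD. These are 1629 ± 231 and 1966 ± 248 RPM (SD, n = 4 each), and the media overlapped. In all 8 libraries the peak furthest inside ended 917 or 918 bp from the 5′ end of the gene.

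SNR19 encodes U1, which pairs with 5′ splice sites (chrXIV:230105-230672, reverse strand). Heights were 215, 222, 162 and 203 RPM in SC-Leu and 220, 294, 302 and 357 RPM in YPD. The lowest YPD library lay just below the highest SC-Leu library, and the other 3 YPD libraries lay above all 4.

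SNR86 encodes the longest snoRNA of the set, at 1004 nt, which guides pseudouridylation of the large ribosomal subunit (chrXIII:762110-763113, reverse strand). Heights were 91.8, 136, 86.5 and 135 RPM in SC-Leu and 126, 93.6, 139 and 106 RPM in YPD, with full overlap. As at LSR1, some peaks were merged with signal inside the gene. In 3 libraries the peak was 879 to 917 bp wide with its summit 509 to 562 bp inside, and in the other 5 a separate and lower inner peak of 25.3 to 71.7 RPM was called.

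SNR37 guides pseudouridylation of the large subunit RNA (chrX:228094-228479, reverse strand). Its heights were 62.9, 28.6, 120 and 35.8 RPM in SC-Leu and 55.0, 95.3, 91.0 and 60.3 RPM in YPD. The SC-Leu libraries held both the lowest and the highest value.

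SNR10, required for cleavages in the ribosomal RNA precursor, was among the lowest of the genes detected throughout (chrVII:345986-346230, forward strand). Heights were 47.0, 23.8, 46.1 and 11.1 RPM in SC-Leu and 41.4, 38.0, 42.3 and 97.5 RPM in YPD. Its median of 41.8 RPM ranked 1123 of 1201 genes, whereas SNR37, SNR86, SNR19 and LSR1 ranked 991, 657, 395 and 125. The ranks of LSR1 and SNR86 include libraries in which the summit lay over 250 bp inside the gene, so they are not those of the 5′ end alone.

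Below these, SNR8 gave 10.8, 28.9 and 18.1 RPM in 3 SC-Leu libraries, with no peak in HPRT1R replicate 1, and 46.7, 27.5, 30.4 and 34.2 RPM in YPD. SNR82 gave 12.3, 16.8 and 17.4 RPM in SC-Leu and 20.9 RPM in 1 YPD library, close to the lowest heights called. SNR42 had 34.0 RPM in 1 SC-Leu library and 33.5 RPM in 1 YPD library. Each of these guides pseudouridylation of the large subunit RNA.

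**Figure D2:**
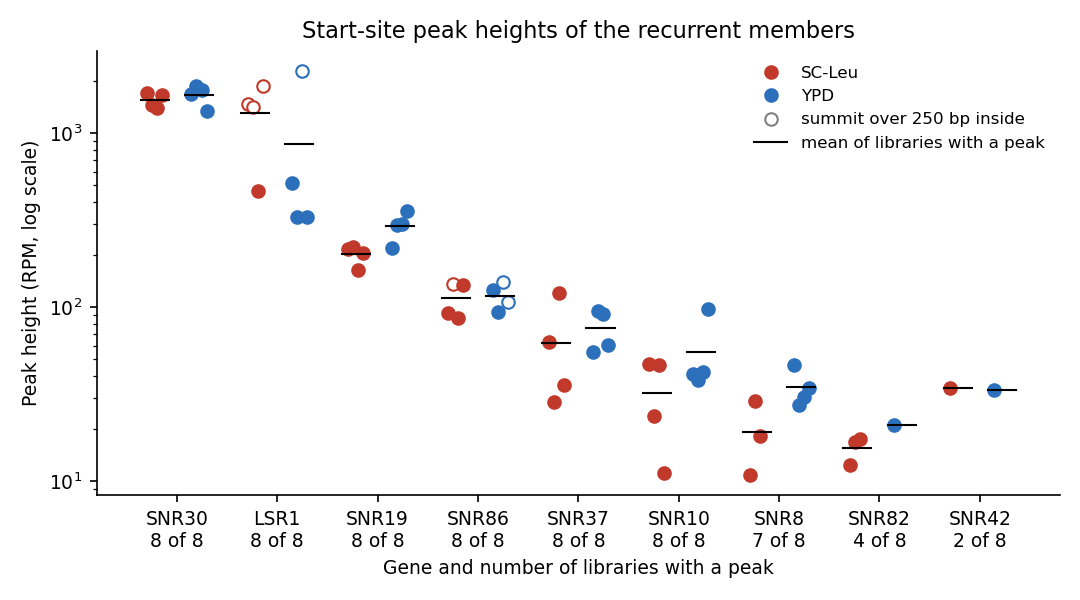
Start peak height (y axis, RPM, log scale) of the 9 genes with a peak in 2 or more libraries, 1 point per library, red for SC-Leu and blue for YPD. Lines are means of the libraries with a peak, and open points are peaks whose summit lay over 250 bp inside, which at LSR1 are the 4 tall libraries.

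Peaks of these genes began at the annotated 5′ end nearly to the base. Of the 72 start peaks of the set (1 per gene and library), 45 began at the annotated first base or 1 base upstream of it (62.5%), and 67 within 15 bp of it (93.1%). For protein-coding genes, whose annotated start is the start codon, the median peak began 53 bp upstream, and 0.357% began at the first base or 1 base upstream. LSR1 peaks began at the first base in all 8 libraries. SNR19, SNR37, SNR10 and SNR8 had medians of 1 base upstream. SNR86 peaks began 0 to 6 bp upstream. SNR30 was the exception among the tall peaks, with 5′ ends 10 to 14 bp upstream in every library. Of the 72 peaks, 36 had the minimum width of 200 bp, the length to which each read is extended.

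The 11 genes detected in a single library had heights of 9.88 to 234 RPM. The tallest was SNR17B, with a peak 337 bp wide and a summit 169 bp inside, and the next was SNR41 at 30.6 RPM. In 8 of the 11 genes the peak began within 15 bp of the annotated end. The other 3 peaks began further upstream, at 77 bp for SNR85, 100 bp for SNR43 and 133 bp for SNR41.

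**Figure D3:**
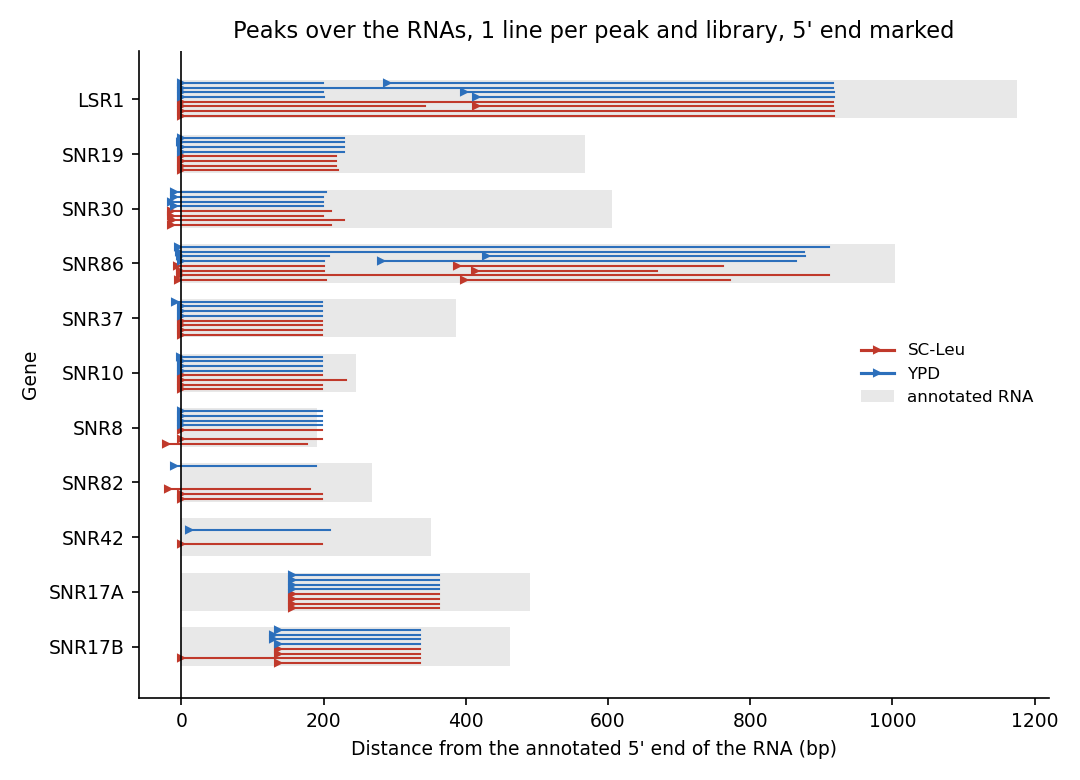
Peaks over 11 genes, drawn from their 5′ end (arrowhead) by distance from the annotated 5′ end of the RNA (x axis, bp), 1 line per peak and library, red for SC-Leu and blue for YPD. Grey bars are the annotated RNAs. Peaks start at 0 in most genes, at 155 to 156 bp in SNR17A, and a second signal lies inside LSR1 and SNR86.

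The sequence before the recurrent start sites is shown for the 9 genes with a peak in 2 or more libraries, because 8 of them held TATAAA 76 to 100 bases upstream and SNR86 did not. Each line runs from 110 bases before the annotated first base to 20 bases inside, in the RefSeq R64 sequence, with TATAAA and the annotated RNA in capitals. The stretches, with gene and strand, are chrII:681843-681972 (LSR1, reverse), chrXIV:230653-230782 (SNR19, reverse), chrXII:198674-198803 (SNR30, forward), chrX:228460-228589 (SNR37, reverse), chrVII:345876-346005 (SNR10, forward), chrXV:832222-832351 (SNR8, forward), chrXI:559347-559476 (SNR42, reverse), chrVII:316678-316807 (SNR82, forward) and chrXIII:763094-763223 (SNR86, reverse).
LSR1: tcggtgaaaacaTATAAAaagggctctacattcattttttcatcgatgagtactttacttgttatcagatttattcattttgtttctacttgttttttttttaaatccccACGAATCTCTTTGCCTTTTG
SNR19: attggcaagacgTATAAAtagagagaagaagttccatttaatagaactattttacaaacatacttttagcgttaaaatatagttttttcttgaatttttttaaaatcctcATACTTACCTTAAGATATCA
SNR30: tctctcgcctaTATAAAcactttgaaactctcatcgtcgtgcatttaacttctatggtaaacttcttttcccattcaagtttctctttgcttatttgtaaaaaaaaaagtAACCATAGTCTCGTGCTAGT
SNR37: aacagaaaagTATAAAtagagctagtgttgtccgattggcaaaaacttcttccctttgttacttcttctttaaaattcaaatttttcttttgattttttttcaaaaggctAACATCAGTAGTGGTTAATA
SNR10: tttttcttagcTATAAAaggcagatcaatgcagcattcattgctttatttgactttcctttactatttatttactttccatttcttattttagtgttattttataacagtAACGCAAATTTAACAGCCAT
SNR8: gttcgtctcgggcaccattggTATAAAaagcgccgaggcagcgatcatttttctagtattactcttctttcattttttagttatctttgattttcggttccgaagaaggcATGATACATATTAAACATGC
SNR42: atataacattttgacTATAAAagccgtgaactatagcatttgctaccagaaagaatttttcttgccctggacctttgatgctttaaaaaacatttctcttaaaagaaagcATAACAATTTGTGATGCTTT
SNR82: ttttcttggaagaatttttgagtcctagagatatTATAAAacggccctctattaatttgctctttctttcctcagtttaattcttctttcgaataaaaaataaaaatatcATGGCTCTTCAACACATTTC
SNR86: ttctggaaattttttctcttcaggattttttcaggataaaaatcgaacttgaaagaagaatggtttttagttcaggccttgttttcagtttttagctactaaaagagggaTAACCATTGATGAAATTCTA

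TATAAA, the core of the element bound by the TATA-binding protein, began 98 bases before the annotated first base in LSR1 and SNR19, 99 in SNR30 and SNR10, 100 in SNR37, 95 in SNR42, 89 in SNR8 and 76 in SNR82. SNR86 had none in its 200 bases upstream. On the gene's strand and 70 to 110 bases upstream, a range set after these positions had been seen, TATAAA was present in 8 of the 9 genes detected in 2 or more libraries. The same range held it in 5 of 6 snRNA genes, 15 of 27 monocistronic box H/ACA genes, 3 of 22 monocistronic box C/D genes and none of the 17 clustered or 8 intron-hosted genes. Over all nuclear genes, most of them protein-coding and so counted from the start codon, the share was 7.77%. Counted from the median peak 5′ end, it was 11.8% of 1190 protein-coding genes with a peak in every library. Among monocistronic box H/ACA genes it was present in 9 of 15 with a start peak and in 6 of 12 without one. Except for the share counted from peaks, the range was counted from the annotated 5′ end. For clustered and intron-hosted RNAs and many box C/D RNAs that end is made by cutting. The range there need not cover a promoter, so the counts by class do not compare promoters.

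Other motifs were searched on both strands of the 200 bases upstream of the annotated 5′ end. That end is the start codon for protein-coding genes and is made by cutting for clustered and intron-hosted RNAs. The windows of these groups are therefore not placed alike. CCCTAA, part of the sequence bound by Tbf1, a factor known at snoRNA promoters, was present at 11 of 51 monocistronic genes (21.6%), at none of the clustered or intron-hosted genes and at 5.13% of all nuclear genes. TTACCCG, bound by Reb1, was present at 8 of 51 monocistronic genes (15.7%) and 5.49% of all nuclear genes. In the same window TATAAA on either strand was present at 33 of 51 (64.7%) and 37.9%. None of these motifs contains another, and a match is only a match of letters.

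The base at the annotated start is given by class, without a test. In 8 of the 9 genes detected in 2 or more libraries, the RNA began with A after a pyrimidine, SNR86 being the exception with T. A pyrimidine followed by a purine stood at the annotated start of all 6 snRNA genes (SNR7-L and SNR7-S share theirs), 27 of 51 monocistronic genes, 5 of 17 clustered genes and 1 of 8 intron-hosted genes.

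The 2 U3 genes, SNR17A and SNR17B, encode the box C/D RNA that guides early cleavages of the ribosomal RNA precursor. SNR17A had no start peak in any library. A peak beginning 155 or 156 bp inside the gene was present in all 8, with heights of 1056, 650, 592 and 239 RPM in SC-Leu and 722, 618, 954 and 843 RPM in YPD. SC-Leu held both the highest and the lowest library, with means of 634 ± 334 and 784 ± 146 RPM (SD, n = 4 each).

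At SNR17B an inner peak began 129 or 136 bp inside in 7 libraries. In SC-Leu the tallest peak over the gene was 295, 234, 121 and 95.7 RPM, and in YPD it was 173, 234, 268.7 and 315 RPM. The exception was HPRT1 replicate 2 in SC-Leu. There the peak began 1 base upstream of the annotated end, was 337 bp wide and had its summit 169 bp inside, which is the only start peak of a U3 gene.

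Yeast U3 genes are known to contain a spliceosomal intron near their 5′ end, while the R64 RefSeq annotation used here gives each as a single exon. Their first bases and the stretch around the inner peaks are shown, in R64. Capitals mark GTATGT (the letters of the 5′ splice site) in the first pair, which covers chrXV:780107-780136 on the forward strand and chrXVI:281488-281517 on the reverse strand. In the second pair, from chrXV:780250-780297 and chrXVI:281354-281401, they mark GACTAAC (the branch region) and the next CAG (the 3′ splice site).
SNR17A start: gtcgacgtacttcaGTATGTaatatacccc
SNR17B start: gtcgacgtacttcaGTATGTtttataccat
SNR17A inner: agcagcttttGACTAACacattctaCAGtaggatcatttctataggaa
SNR17B inner: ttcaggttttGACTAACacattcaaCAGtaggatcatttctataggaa

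GTATGT followed the first 14 bases in both genes. From its first base to the end of the CAG were 157 bases in SNR17A and 130 in SNR17B. The inner peaks of SNR17A began 15 or 16 bases before the base after the CAG, and those of SNR17B 8 or 15 bases before it. The reads were aligned with a tool that does not split reads across introns, and whether this set the position of the peaks was not tested.

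The other snRNA genes had no start peak. These were SNR14 (U4, 160 nt), SNR7-L and SNR7-S (the long and short forms of U5, 214 and 179 nt, which share a 5′ end) and SNR6 (U6, 112 nt). SNR52, the polymerase III snoRNA gene, had none either.

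Clustered genes gave a single start peak. SNR41, the first gene of the cluster with SNR70 and SNR51, had 30.6 RPM in HPRT1 replicate 1 in YPD, and the peak began 133 bp upstream of the RNA. The first genes of the other 4 clusters, SNR67, SNR190, SNR57 and SNR78, had none within 300 bp. Widening the window to 500 bp raised the count for clustered genes from 1 to 2, and leaving out HPRT1 integrated replicate 1, which held the SNR41 peak, reduced it to 0.

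No peak began within an intron-hosted snoRNA in any library, and their host genes were detected unevenly. ASC1, a protein of the small ribosomal subunit and host of SNR24, had a start peak in all 8 libraries at 402 to 756 RPM. NOG2, a GTPase of large subunit assembly and host of SNR191, had one in all 8 at 19.1 to 111 RPM. IMD4, an enzyme of GMP synthesis and host of SNR54, had 75.7 and 47.4 RPM in the 2 HPRT1R libraries in YPD. RPL7B, host of SNR59, had 14.2 RPM in 1 library. EFB1, RPL7A, TEF4 and RPS22B, the hosts of SNR18, SNR39, SNR38 and SNR44, had none at their start. Peaks further inside EFB1 and TEF4 began 441 to 662 bp and 757 to 1219 bp from the annotated start of the host and were found in 3 libraries each. The first annotated exon of the 3 hosts with a peak in 2 or more libraries was 460 to 810 nt, and that of the other 5 was 11 to 205 nt. The part of exon length in this was not tested.

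The last comparison asked whether start peak heights differed between the media. It was fitted with limma on log2 RPM over all 1201 nuclear genes with a peak in 8 of 8 libraries. At an adjusted p under 0.05, 7 genes were called (0.583%), 6 higher in SC-Leu and 1 higher in YPD. None of the 6 small RNA genes was among them, and 1 of the 6, SNR19, had an unadjusted p under 0.05, as did 187 of the 1201 genes. The median of all 1201 genes was −0.13 on the log2 scale (SC-Leu minus YPD), so that values are read against this shift.

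With 4 libraries per medium, SNR19 differed by −0.54 ± 0.23 (SE), with a 95% interval from −1.05 to −0.02. Its unadjusted p in limma was 0.0430 and its adjusted p 0.305. The interval contains the median shift of all genes, and with size factors the difference was −0.42 with an interval from −0.94 to 0.09. SNR10 differed by −0.88, with an interval from −2.01 to 0.25 and an adjusted p of 0.439 in limma. SNR37 differed by −0.47, with an interval from −1.47 to 0.52. SNR30 and SNR86 differed by −0.10 (−0.56 to 0.37) and −0.07 (−0.63 to 0.50). These intervals do not show that the heights were equal. LSR1 differed by 0.95, with an interval from −0.54 to 2.44. The libraries in which its 5′ and inner signals were called as 1 peak were 3 in SC-Leu and 1 in YPD. With summits required within 250 bp LSR1 was no longer present in every library and could not be fitted. The same held for SNR86, whose 5′ and inner signals were called as 1 peak in some libraries of both media.

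**Figure D4:**
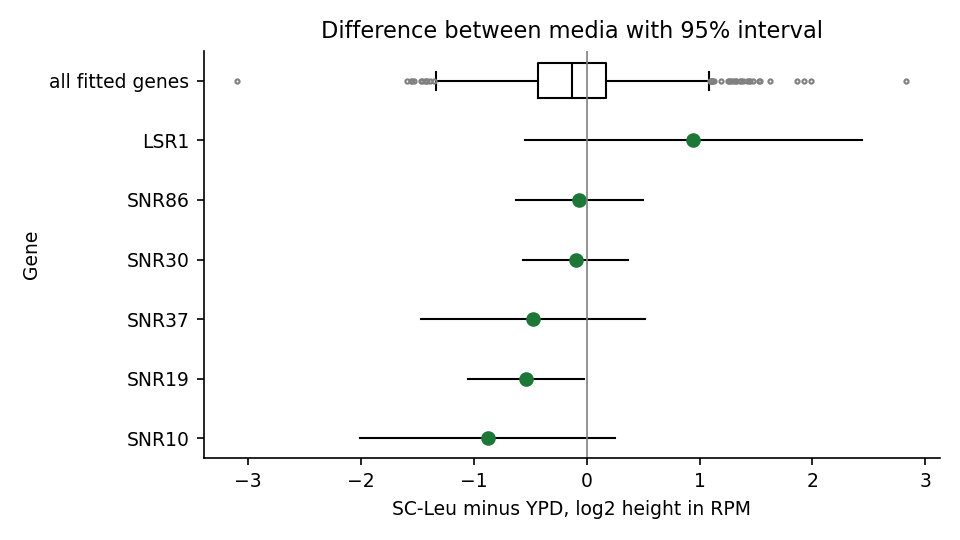
Difference in start peak height between media (x axis, SC-Leu minus YPD on the log2 scale of RPM) for the 6 genes with a peak in every library, as points with 95% intervals from limma, and as a box plot for all 1201 fitted genes (median, quartiles, whiskers to 1.5 times the interquartile range). The interval of SNR19 excludes 0 before adjustment but contains the median of all genes, and with size factors it contains 0.

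None of the 6 genes had SC-Leu and YPD heights that did not overlap. Over the 1201 genes, all 4 SC-Leu heights lay below all 4 YPD heights in 7.24% and above them in 4.08%. No small RNA gene was detected in all 4 libraries of a medium and in none of the other, a pattern found in each direction at 0.154% of the 3888 genes with a start peak.

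The difference between media was also compared between HPRT1 and HPRT1R strains. With the interaction of medium and locus in limma, 0 of 1201 genes were called (0%) at an adjusted p under 0.05, and 87 genes, none of them among the 6, had an unadjusted p under 0.05. The lowest adjusted p of the 6 was 0.727. Within HPRT1 and HPRT1R strains respectively, SNR19 differed between media by −0.22 and −0.85, and SNR10 by −0.25 and −1.504 on the log2 scale, with 2 libraries on each side.

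Genes for the proteins that bind, assemble and process these RNAs were described alongside. Of 8 genes for core proteins of snoRNPs, 7 had a start peak and 3 had one in every library, of 10 assembly factors 6 and 1, and of 13 genes acting on the ends and caps of these RNAs (end trimming, termination, cap methylation and cap binding) 6 and 2. Of 7 Sm protein genes 5 had a peak and 3 had one in every library. None of these 9 fitted genes was called between media by limma. Their medians of SC-Leu minus YPD were −0.69 (core proteins), −0.67 (the assembly gene RVB1), −0.49 (ends and caps) and −0.15 (Sm proteins) on the log2 scale.

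The 3 fitted core protein genes are given in full, a choice made after their values had been seen. NHP2, an H/ACA protein, had 603 to 656 RPM in the SC-Leu libraries and 894 to 1184 RPM in the YPD libraries, without overlap. NOP1, the methyltransferase of C/D particles, had 229 to 495 RPM in SC-Leu and 540 to 805 RPM in YPD, also without overlap. Their limma adjusted p-values were 0.179 and 0.178. GAR1, another H/ACA protein, had 317 to 607 RPM in SC-Leu and 674 to 1098 RPM in YPD, without overlap and with an adjusted p of 0.296. Such a lack of overlap was found at 7.24% of all fitted genes, as given above.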

How the data were processed

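The authors trimmed reads with Trimmomatic, aligned the 5′ reads with Bowtie2 2.2.9 to sacCer3 with the synthetic locus added, and called peaks per library and strand with MACS2 2.1.0 without a control. Each deposited list gives a score, a fold enrichment (ratio of summit pileup to local background), a −log10 p-value and a −log10 q-value. The lists called with the locus as a separate sequence were used for all 8 libraries, and those with the locus inside chromosome XI as an alternative. Summit pileup and depth were recovered from the fold and the Poisson p, giving a whole number of reads (tolerance 0.05) for 100% of the 45253 peaks below 2000 reads. Heights are pileup per 1000000 reads, with no pseudocount. Genes and sequences came from RefSeq R64, within whose nuclear chromosome lengths all peaks of the lists used ended. Where a window held several peaks the tallest was used.

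Heights of genes with a peak in 8 of 8 libraries were fitted in limma 3.58.1 (R 4.3.3), adjusted by Benjamini-Hochberg over all 1201 genes, after tests on simulated data. No p-value was computed over the set or its classes. Named by rule were the snRNA and U3 genes, genes detected in every library, genes called between media or detected in 1 medium only, intron-hosted genes with their hosts, first genes of clusters and SNR52. All others, among them SNR8, SNR82, SNR42, SNR13, SNR43 and SNR85, were chosen after their values were seen. The members and lists were chosen with earlier results of these data known. Summits within 250 bp and windows to the 3′ end were added after seeing the data. The samples are 2 colonies per strain.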

Additional observations from a re-analysis of the deposited data

Results flagged for a closer look

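Among 13 sets of 4 libraries of 1 medium, 2 held a library far from the others in RPM. The rule used marks about 1 in 20 sets by chance if the values are normally distributed. Whether heights in RPM are so distributed was not tested. LSR1 stood at 2273 RPM in HPRT1R integrated replicate 1 in YPD, with the other 3 YPD libraries between 329 and 518 RPM. In that library the 5′ peak and the signal inside the gene were called as 1 peak, and the tallest peak over the whole gene was 1760 to 2273 RPM in all 4.

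SNR10 stood at 97.5 RPM in HPRT1R integrated replicate 2 in YPD, with the other 3 between 38.0 and 42.3 RPM. Without that library its difference between media was −0.56 on the log2 scale, against −0.88 with it.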

How the results depend on the processing

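No small RNA gene was called between media under any of 22 alternatives, with a lowest adjusted p of 0.207 (limma). Leaving out 1 replicate at a time, SNR10 differed by −1.13 to −0.44 (−0.88 with all, −0.44 without HPRT1R episome replicate 2), SNR19 by −0.67 to −0.44, SNR37 by −0.87 (without HPRT1R episome replicate 1) to −0.18 (without HPRT1 episome replicate 2) and LSR1 by 0.66 to 1.59 (without HPRT1R integrated replicate 1). LSR1 was 1.44 with the lists on the modified chromosome XI. With size factors the 95% interval of SNR19 ran from −0.94 to 0.09, and with locus as a covariate from −1.09 to 0.02. The count of all genes called, 7, was 1 with the authors' fold enrichment, 11 with a peak in at least 6 of 8 libraries, 15 with a fold of at least 4 and 1 to 7 without single replicates (1 without HPRT1 episome replicate 1, 2 without HPRT1R integrated replicate 1, 4 without each other episome library). SNR30 changed sign to 0.0076 with heights scaled to reads of the same strand, 0.016 with size factors and 0.020 with the fold, and SNR86 to 0.047 with size factors. Without single replicates SNR86 ranged from −0.17 to 0.048, above 0 without replicate 1 of HPRT1 episome, HPRT1R episome or HPRT1R integrated. Size factors moved the median of all genes from −0.13 to −0.01. With the replicate block 6 genes and no small RNA gene were called, and the numbers did not pair the samples, since deviations of same-numbered libraries correlated at −0.064 to 0.0094. The interaction remained at 0 genes.

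The count with a start peak was 20. It was 8 with a fold of at least 4 and 13 with a −log10 q of at least 20, and 17 to 20 without single replicates. Monocistronic genes fell to 6 and 10 under these, from 17. Clustered genes were 2 with a window of 500 bp, 0 with a fold of at least 4 and 0 to 1 without single replicates (0 without HPRT1 integrated replicate 1). Cluster distances of 300 and 1000 bp changed no class. The median position stayed at −1. Start sites below the lowest heights called, 8.48 to 14.6 RPM, could not be seen, and the part of depth in that limit was not tested.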

Other observations

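Other stable noncoding RNAs gave values of the same order. SCR1, the RNA of the signal recognition particle, which is made by RNA polymerase III, had a start peak in all 8 libraries at 155 to 464 RPM. Its median of 328 RPM was above the 221 RPM of SNR19. A start peak was thus also called at a gene of RNA polymerase III, and whether the RNA at each peak was capped was not tested. TLC1, the telomerase RNA, had one in all 8 at 17.4 to 40.1 RPM. NME1 and RPR1, the RNAs of RNase MRP and RNase P, had one in 6 libraries each, at 11.9 to 62.4 and 16.2 to 47.8 RPM. SCR1 and TLC1 were fitted and not called between media (limma adjusted p = 0.725 and 0.903).

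Peaks that began inside a small RNA gene on the opposite strand were found at 4 of the 82 genes, LSR1, SNR43, SNR64 and SNR8, in 1 library each, at 10.6 to 28.3 RPM.

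The annotated box C/D type could be read in most of the sequences, and the box H/ACA type less often. TGATGA lay in the first 20 bases of 36 of 45 box C/D genes and CTGA in the last 20 of 43, whereas ACA stood 3 bases from the 3′ end of 14 of 29 box H/ACA genes as annotated.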
